A study of Mus musculus with 17 samples.

Results

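The hippocampus of undisturbed mice was described from the 9 arrays of 17 whose titles name non-sleep-deprived controls, without any contrast to the 8 sleep-deprived animals. These were C57BL/6J adult males, given as C57/BL6 in the genotype label, whose labelled age is 2 months, where the growth protocol has 2 to 4 months. They were housed singly under 12 h of light a day, handled daily for 6 days, and then not disturbed in the home cage for the 5 h in which the other group was kept awake. The whole hippocampus was dissected at the end of that time, in alternation with sleep-deprived animals, and every array, an Affymetrix mouse expression array, holds RNA from a single animal. Replicates 1 to 9 below are therefore 9 separate animals.

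The hippocampus holds the granule cells of the dentate gyrus, the pyramidal cells of fields CA3, CA2 and CA1, and scattered interneurons, together with astrocytes, oligodendrocytes, microglia and vessels. It borders the lateral ventricle, so a dissection can carry strips of choroid plexus, the secretory tissue that makes cerebrospinal fluid, and of meninges, the collagen-rich coverings that also hold the larger vessels. In such bulk RNA a lower signal can come from fewer cells of a type or from less RNA per cell, and these cannot be told apart.

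Values are log2 signals after RMA, a method that combines the probes of a probe set and equalises the distributions of the arrays, so 1 unit is a doubling of signal. After leaving out the manufacturer's controls, 45037 probe sets remained, and 18193 genes were represented by their brightest probe set that carries a single symbol. Array medians lay between 6.13 and 6.19, the correlation between any 2 arrays lay between 0.994 and 0.998, and no pair held identical values. Replicates 1 and 2 had the lowest mean correlation with the others, 0.9954 and 0.9961. Chemosensory receptors, which brain tissue hardly uses, served as a background: the median of 72 such genes was 4.17, and their 95th percentile, 5.92, was taken as the background level. Of all genes, 12158 (66.8%) had a mean above that level.

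The labelled tissue was checked against its markers. All 9 measured CA1 markers, all 8 of CA2, all 9 of CA3 and 10 of 11 of dentate granule cells lay above the background level. Wfs1, a membrane protein of the endoplasmic reticulum that marks CA1, had a mean signal of 10.60 ± 0.23 (SD, n = 9), and Pcp4, a calmodulin-binding peptide rich in CA2, reached 12.01 ± 0.07. Of markers for neighbouring regions, 8 of 14 measured genes for the thalamus and habenula, 6 of 9 for the striatum and 8 of 10 for the neocortex were above background. The share over all genes was 66.8%, so these counts do not tell whether tissue of those regions was included. Of the members of these lists, the thalamic transcription factor Gbx2 (mean 3.71) and the habenular Pou4f1 (mean 3.71) were at the level of the chemosensory receptors. Of the striatal receptors, Gpr6 (4.14) and Drd2 (5.89) were below the background level and Drd1 (6.92) was above it. The Y-linked translation factor gene Eif2s3y read 7.95 to 8.61 in all 9 animals, and the probe sets of Xist, the RNA of the inactive X, had means of 3.58, 3.76 and 6.34.

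The strongest signals had small SDs. Fth1, the heavy chain of the iron store ferritin, ranked first at 14.34 ± 0.035 (SD, n = 9), and Mbp, the myelin basic protein, second at 14.10 ± 0.043. Next came ND5, a mitochondrially encoded subunit of complex I (14.07), the translation factor Eef1a1 (14.04) and cytoskeletal Actb (14.01). The other genes of the first 20 were Tmsb4x, Rps29, Selenow, Cox6a1, Tpt1, Ywhab, Atp1b1, Ndrg4, Nsmf, Gpm6a, Aplp1, Gnas, Hspa8, Cox5b and App. Their means ran from 13.68 to 14.34, and their SDs from 0.032 to 0.087. All 20 SDs lay under the median of all genes above background, and 19 under that of the brightest of 5 equal bins by signal (0.081). SD was lower in brighter bins throughout, and whether the scale compresses differences near its top was not tested. These are ranks of signal. Probes differ in affinity, so the order is not one of transcript number: when the probe sets of a gene were averaged, 7 of these 20 genes remained among the first 20.

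The spread between animals was small for most genes. Over the 12158 genes above background the median SD was 0.098, which corresponds to a 1.07-fold deviation, and the 5th and 95th percentiles were 0.048 and 0.19. When these genes were cut by signal into 5 equal bins, the median SD was 0.12 in the dimmest bin and 0.081 in the brightest. Only 116 genes (0.954%) had an SD over 0.3, and 2 had an SD over 1.

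Where a gene had a second probe set above background, the pair gave 2 readings of the same RNA on the same array. Variation of the array as a whole is shared by both, so they are not independent. Over 5501 such genes the median correlation across the 9 animals between a gene's 2 brightest probe sets was 0.32. In 5 equal bins by SD it was 0.18 in the bin of smallest SD, 0.49 in the bin of largest, and 0.90 over the 38 genes with an SD over 0.3. For most genes the deviation of a single animal was therefore not repeated closely by the second probe set. These correlations are across animals within a gene and are given as a description.

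Of the 25 genes of largest spread, 3 were on the choroid plexus list, 4 on the meningeal list and 2 on the list of endothelial and mural cells, 1 was on the thalamic list and 15 were on none. Ttr, transthyretin, the thyroid hormone carrier that choroid plexus epithelium makes in large amounts, read 9.71, 9.56, 8.02, 13.84, 12.00, 10.72, 8.03, 11.06 and 14.08 in replicates 1 to 9. Replicates 4 and 9 were highest and replicates 3 and 7 lowest, and the range was 66.7-fold, with an SD of 2.23. Kcnj13, a potassium channel of the same epithelium, was second with an SD of 1.01 and was likewise highest in replicates 9 (8.18) and 4 (7.60) and lowest in replicates 7 (5.17) and 3 (5.43).

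Of the 25 genes with the largest SD, 15 were lowest in replicate 3 and 13 highest in replicate 9. Fmod, a collagen-binding proteoglycan, ranged from 6.83 to 8.99 around a median of 7.96. The related Ogn and Omd, the collagen genes Col3a1 and Col1a2, and Pcolce, which promotes procollagen processing, belonged to the same set. Slc13a4, Slc6a20a and Slc22a6, membrane transporters, and Aldh1a2, which makes retinoic acid and is typical of meninges, were there as well. Acta2, smooth muscle actin, and Tagln, a protein bound to it, were lowest in replicates 1, 2 and 3 and highest in replicate 6 (10.61 and 9.07). Thbd, Mgp, Efemp1 and Ecrg4, on none of the lists, and Zic1, on the thalamic list, were also among the 25. Folr1, the folate receptor of the choroid plexus, was high in 1 animal: replicate 9 read 7.31, the others 5.68 to 6.21, and 81.7% of its sum of squares came from that array.

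A further 5 of the 25 genes had other patterns. They were Max, a dimerisation partner of Myc, Cacng8, an auxiliary subunit of AMPA receptors, Eps8l1, Erdr1 and Mid1. A second probe set above background existed for 7 of the 25 genes. For Ttr, Fmod, Ogn, Pcolce, Ecrg4 and Zic1 the 2 probe sets correlated with r between 0.93 and 0.999 (n = 9; rho 0.88 to 0.98). The largest Benjamini-Hochberg adjusted p among these 6 was 0.00044 for r and 0.0036 for rho, by exact two-sided permutation tests adjusted over 7 pairs, and r stayed between 0.79 and 0.997 without the 2 animals farthest from the median. For Cacng8 the second, dimmer probe set gave r = 0.41 (adjusted p = 0.28, exact permutation), rho = 0.64 (adjusted p = 0.068, exact permutation) and r = 0.84 without those 2 animals.

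**Figure D1:**
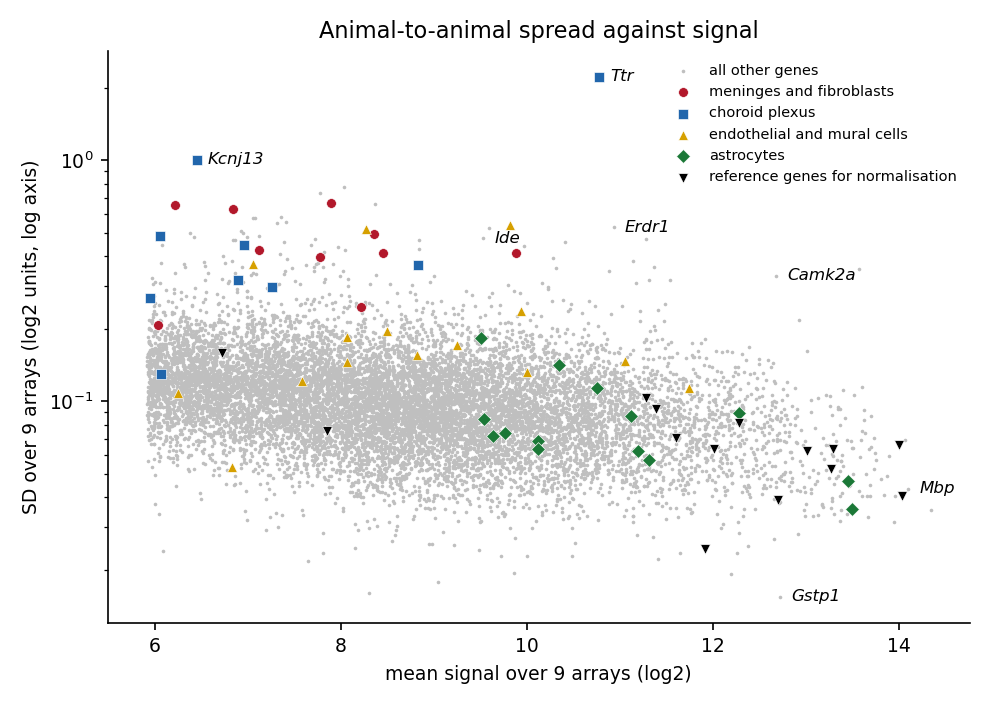
Each point is a gene above background, with its mean signal over 9 arrays (log2) on the horizontal axis and its SD over the same arrays (log2 units, logarithmic axis) on the vertical. Coloured points are members of 5 lists; Ttr (SD 2.23) and Kcnj13 (SD 1.01) stand highest, meningeal genes lie above most genes of like signal, and Gstp1 (SD 0.015) is lowest.

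At the other end, 10 genes with a mean of at least 8 had SDs of 0.015 to 0.024. Gstp1, a glutathione transferase, lay between 12.70 and 12.75 in all 9 animals, a 1.04-fold range. Klc4, a kinesin light chain, Spsb3, Akap11, Kat7, Spop, Utp4, Ica1, Saraf and Napa were the others. Of 14 genes in common use as references for normalisation, 12 had an SD under the median of all genes. Sdha, a subunit of succinate dehydrogenase, was the steadiest of the 14 (11.92 ± 0.024), and Gusb (6.73 ± 0.16) and B2m (11.29 ± 0.10) were the exceptions.

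Genes of 1 cell type or process often moved together from animal to animal, but not for every type. As a measure, the correlation across the 9 animals was computed for each pair of genes of a list and the median taken. Over all pairs of genes above background that median was 0.04, with quartiles of -0.27 and 0.35. Of 33 lists, 14 had a median over 0.3, among them 9 of 20 lists of cell type markers and 3 of 11 lists of processes. The red cell list, counted here, held only 3 genes above background. Some of the 14 fell under 0.3 in at least 1 setting. Their lowest values were 0.17 for myelin, 0.23 for respiratory, 0.24 for ventral, 0.28 for microglial and 0.29 for choroid plexus genes. The choroid plexus value came from regressing out Ttr, which is itself a member of that list. Lower medians also moved with the processing: over all settings run the value lay between 0.14 and 0.40 for CA1, 0.022 and 0.18 for CA2, -0.14 and 0.013 for CA3, 0.10 and 0.44 for the subiculum, 0.079 and 0.25 for interneurons, and -0.027 and 0.14 for astrocytes. Correlations between genes of 1 array set share that set's technical variation as well as the animals', and they are given with no test. Counts of genes lowest or highest in a given animal, here and below, stand without the share over all genes, which was not counted. Such counts cannot tell a trait of a list from a pattern of the whole array.

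**Figure D2:**
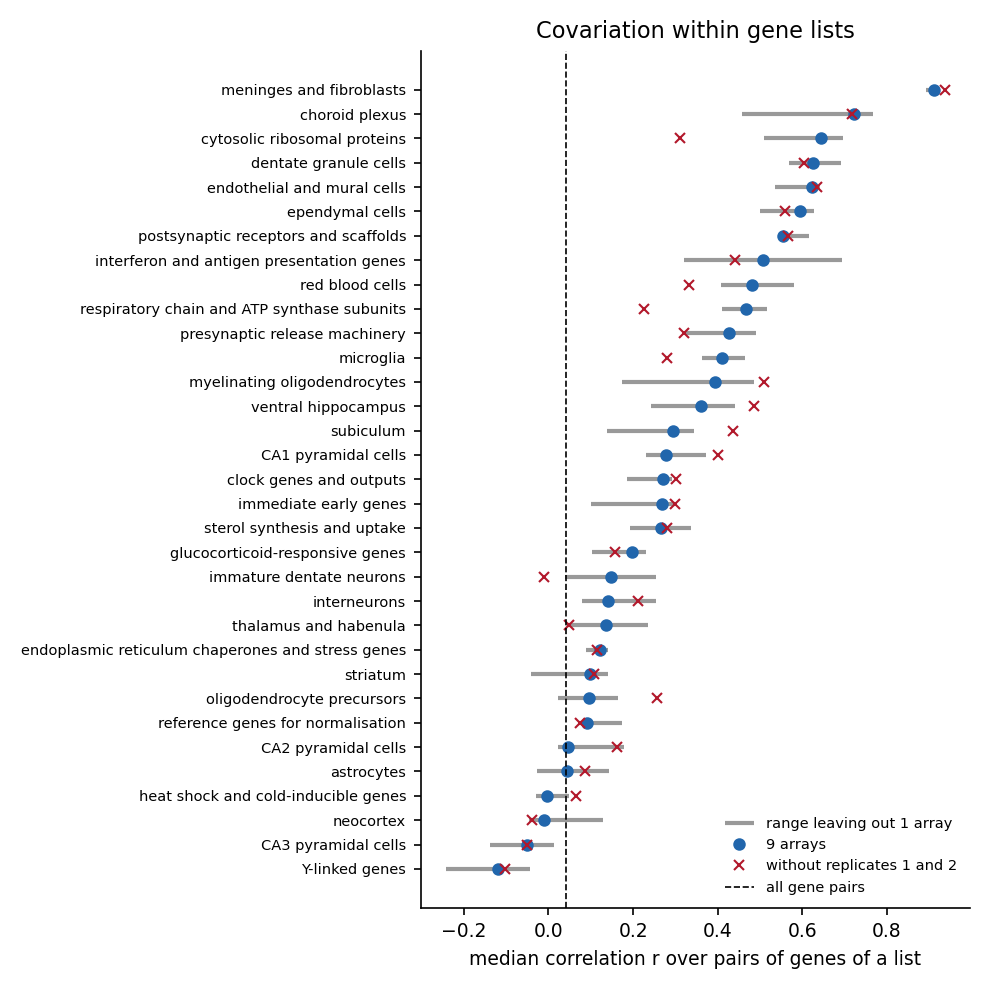
For each of 33 gene lists the median correlation over pairs of its genes across the animals is on the horizontal axis (points, 9 arrays), with the range when 1 array is left out (bars) and the value without replicates 1 and 2 (crosses). Meningeal genes are highest (0.91) and the dashed line marks all gene pairs (0.04); ribosomal and respiratory genes move to 0.31 and 0.23 without replicates 1 and 2.

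Meningeal and fibroblast genes were the most coherent list, with a median r of 0.91 over 10 genes above background, and 9 of the 10 were lowest in replicate 3. Relative to its mean over the animals the list stood at -0.68 log2 units in replicate 3 and -0.43 in replicate 7, against 0.53 in replicate 6, 0.40 in replicate 8 and 0.56 in replicate 9. Igf2, an insulin-like growth factor made in meninges and choroid plexus, read 9.11 in replicate 3 and 10.42 in replicate 9. The 9 choroid plexus genes above background had a median r of 0.72, and 8 of the 9 were highest in replicate 9, without which the median r was 0.46. These 9 of 16 measured genes passed on their mean over all animals, replicate 9 included. A gene could thus enter through a high value there, so the count of 8 and the median r can be partly built in. The mean of the 9 genes was also high in replicate 4 (0.66 above its average), where the meningeal mean was only 0.14 above. Regressing every gene on Ttr brought the choroid plexus list from 0.72 to 0.29 and left the meningeal list at 0.86. Ttr is itself on the choroid plexus list and has its largest SD, so a fall of that list is partly built in. Ttr regressed on itself leaves no variation, so 0.29 describes the other genes of the list. The contrast with the meningeal list therefore cannot tell whether the lists vary separately. By their means in each animal, plexus and meningeal genes shared their low animals, replicates 3 and 7, but not all of their high ones.

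Vessel genes were the next of this kind, with a median r of 0.62 over 15 markers of endothelial and mural cells. Their mean was lowest in replicate 3 (-0.24) and highest in replicate 6 (0.28). Acta2, Tagln and Myh11, the smooth muscle myosin, spread most within the list, while the pericyte marker Rgs5 (11.75 ± 0.11) and the endothelial tight-junction gene Cldn5 (9.25 ± 0.17) varied less. The ciliated ependymal cells, which line the ventricle, had a median r of 0.59 over 8 genes but a different order: 5 of the 8 were highest in replicate 5. Ccdc153, a ciliary gene of these cells, read 7.84 there and 7.83 in replicate 1, against 7.32 in replicate 6.

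Among the neurons the dentate granule cells had the clearest common pattern. Their 10 markers above background had a median r of 0.62, the list mean was lowest in replicate 6 (-0.23) and lay between 0.12 and 0.13 above average in replicates 1, 2, 3 and 7, and 6 of the 10 genes were lowest in replicate 6. Prox1, the transcription factor that specifies granule cells, read 7.73, 7.60, 7.58, 7.20, 7.34, 7.09, 7.50, 7.39 and 7.21. The desmosomal gene Dsp ranged from 8.88 in replicate 6 to 9.61 in replicate 3, and lactase, Lct, from 8.45 in replicate 6 to 9.06 in replicate 1. The pyramidal fields were less coherent: median r was 0.28 for CA1, 0.05 for CA2 and -0.05 for CA3. In CA3 the cochlin gene Coch, with the largest SD of its list (0.34), was highest in replicate 9 as meningeal genes were, and it fell into group 1 of the variable genes described below. Markers of the ventral pole (0.36) and of the subiculum (0.29), the field into which CA1 projects, were both highest on average in replicate 4, by 0.19 and 0.18; the subiculum value was 0.14 without replicate 3 and 0.16 without replicate 4. Trhr, the receptor of thyrotropin-releasing hormone, read 7.28 there and 6.42 in replicate 7. Interneuron markers had a median r of 0.14, with SDs as small as 0.042 for the peptide gene Cck (mean 12.37).

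Glia split in the same way. Myelin genes had a median r of 0.39 over 16 genes, of which 12 were lowest in replicate 9 and 7 highest in replicate 6, and it was 0.17 without replicate 9. Mog, a surface protein of myelin, read 9.46 in replicate 6 and 8.87 in replicate 9, whereas Mbp, close to the top of the scale, lay between 14.04 and 14.19. Microglial genes had a median r of 0.41 over 14 genes; the complement gene C1qb read 9.53 in replicate 1, 9.55 in replicate 2 and 9.93 in replicate 9. Astrocyte genes did not move together (0.04) and spread little, with a median SD of 0.073: Slc1a2, the main glutamate transporter, was 13.50 ± 0.036 and Gfap, an intermediate filament, 10.35 ± 0.14. Of 7 red cell genes read through probe sets with a single symbol, 3 were above background, and the globin genes Hba-a1 (4.29), Hba-a2 (4.60) and Hbb-b2 (5.53) were not. Probe sets that carry several symbols were not named.

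**Figure D3:**
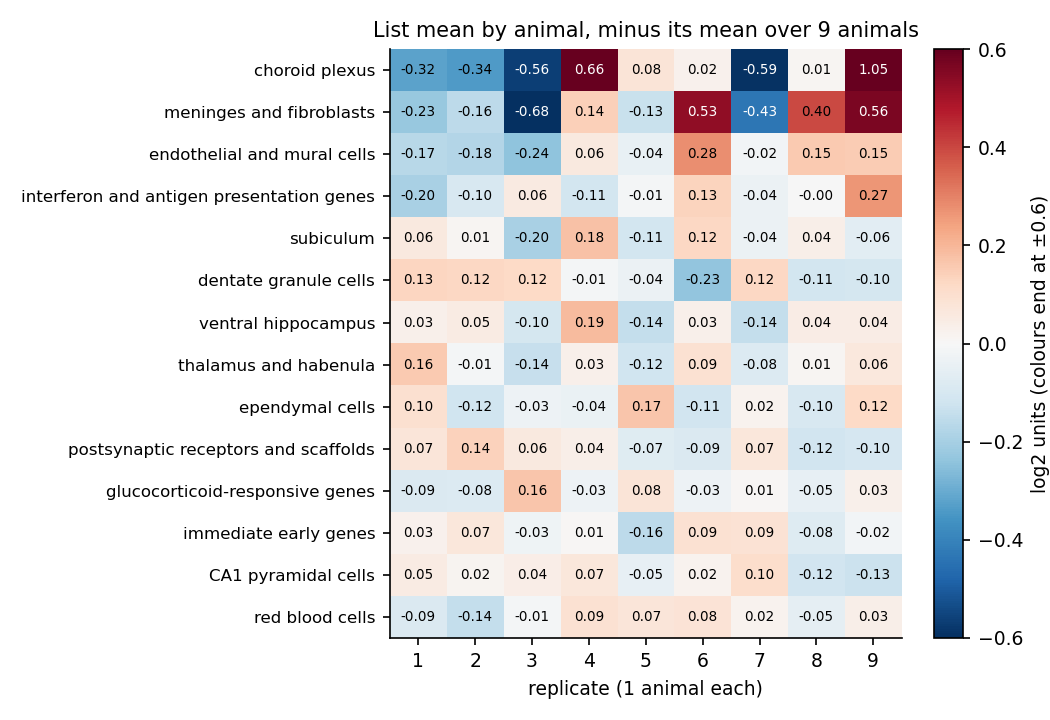
Mean of each list in each animal minus its mean over the 9 animals (log2 units; colours end at 0.6 in either direction), for the 14 lists of largest range. Choroid plexus genes run from -0.59 in replicate 7 to 1.05 in replicate 9 and meningeal genes from -0.68 to 0.56; dentate granule genes are lowest in replicate 6 (-0.23).

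Among the processes the ribosomal genes had the highest median r. The 43 cytosolic ribosomal protein genes above background had a median r of 0.64 at a median SD of only 0.082, and 22 were lowest in replicate 1 and 13 in replicate 2, while 26 were highest in replicate 5. The 78 genes for subunits of the respiratory chain and ATP synthase had a median r of 0.47; of these, 36 were lowest in replicate 1 and 24 in replicate 2. The list means in replicates 1 and 2 were -0.12 and -0.09 for ribosomal and -0.09 and -0.08 for respiratory genes. Without replicates 1 and 2 the median r was 0.31 for the ribosomal and 0.23 for the respiratory list, so much of their covariation rested on those 2 animals. That setting was chosen after the data were seen.

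Synaptic genes ran the other way. Postsynaptic receptors and scaffolds had a median r of 0.56 over 20 genes, 10 of them highest in replicate 2 and 8 lowest in replicate 9. Presynaptic release genes had a median r of 0.43 over 18 genes, 8 highest in replicate 2. Camk2a, the kinase of the postsynaptic density, read 13.33 in replicate 2 and 12.29 in replicates 5 and 8, and Dlg4, the scaffold PSD-95, read 10.80 in replicate 2 and 9.88 in replicates 5 and 6. Snap25 (13.66 ± 0.041) and Syt1 (13.57 ± 0.043), which drive vesicle fusion, hardly varied.

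Stress and activity genes were less coherent than the synaptic ones, with patterns that differed between genes. Their spread was not smaller: median SDs were 0.129 for glucocorticoid-responsive and 0.145 for immediate early genes, against 0.106 for postsynaptic and 0.109 for presynaptic genes. Glucocorticoid-responsive genes had a median r of 0.20 over 19 genes, and 6 of the 19 were highest in replicate 3, without which it was 0.10. Sgk1, a kinase induced by corticosterone, read 10.84 in replicate 3 and 9.88 to 10.39 in the others, and Tsc22d3, also called GILZ, read 10.20 against 9.53 to 9.99. Fkbp5, a chaperone of the glucocorticoid receptor, was highest in replicate 3 too (10.07 against 9.60 to 9.89), as was Arrdc2 (6.78 against 5.83 to 6.40). Immediate early genes had a median r of 0.27 over 23 genes, with 8 highest in replicate 6 and 11 lowest in replicate 5, without which it was 0.10. Fos ranged from 6.78 in replicate 8 to 7.94 in replicate 6, and Arc, whose RNA travels to active synapses, from 8.60 in replicate 9 to 9.38 in replicate 7. Npas4, a factor induced by neuronal activity, was below the background level on average (mean 4.92).

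The interferon and antigen presentation list (median r 0.51, 12 genes above background) held 2 patterns. The interferon-induced genes Ifit3 and Rsad2 were highest in replicate 3 (8.42 and 6.85), and so were Usp18 (6.07) and Oasl2 (5.63), whose means lie under the background level. The class I gene H2-D1 and Ifitm3 were highest in replicate 9 (9.98 and 9.94), and of the 12 genes 7 were highest there; the median r was 0.32 without that animal. Clock genes and their outputs had a median r of 0.27 over 19 genes, sterol genes one of 0.27 over 15 (0.057 and 0.13 when probe sets were averaged, and 0.14 for the clock list after quantile normalisation), chaperones of the endoplasmic reticulum one of 0.12 over 20, and heat shock genes one of -0.0031 over 14. Dbp, a clock output factor, lay between 10.46 and 10.88 and Nr1d2, a clock repressor, between 11.20 and 11.37.

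Across the genome few genes followed a single marker. Each of 6 genes (Ttr, Mbp, Prox1, Fos, Sgk1 and Dbp) was used as a continuous covariate in limma, and the other 18192 genes were tested for a slope, with Benjamini-Hochberg adjusted p-values called under 0.05. For Ttr 1 gene was called (0.0055% of those tested): Kcnj13, with a slope of 0.42 ± 0.046 (SE, log2 units per log2 unit of Ttr; adjusted p = 0.0071). That call was lost without replicate 7 or without replicate 9, where 0 genes were called, and with the trend and robust options (adjusted p = 0.089). All 15 other choroid plexus genes had positive slopes with Ttr, with a median of 0.10 against 0.002 over all genes, and 11 of 11 meningeal genes did, with a median of 0.14. The sign alone was not particular to them. Slopes were positive for 14 of 15 endothelial and mural (median 0.025), 44 of 46 ribosomal (0.014) and 75 of 82 respiratory genes (0.012). They were positive for 1 of 18 presynaptic and 1 of 21 postsynaptic genes.

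For Prox1 7 genes were called (0.0385%), all with negative slopes, and 5 of them are contractile or smooth muscle genes. Acta2 had a slope of -2.29 ± 0.30 (SE; adjusted p = 0.031). The others were Cnn1, calponin (-1.48), Tagln (-2.18), Myh11 (-1.59), Mgp, a calcification inhibitor of vessel walls (-2.17), the collagen Col8a1 (-1.27) and Myl9, a myosin light chain of smooth muscle (-1.78), with adjusted p of 0.031 to 0.038 in limma. Myl9 read 8.25 to 8.38 in replicates 1, 2 and 3, where Prox1 was highest, and 9.50 in replicate 6, where Prox1 was lowest. Cnn1 and Col8a1 had means of 5.10 and 5.49, under the background level. The 7 calls rest on few animals: 0 remained without replicate 2, 3, 6 or 9 and 1 without replicate 1, and 0 remained when probe sets were averaged. Of 15 endothelial and mural genes, 3 of them among the 7 called, 15 had negative slopes with Prox1, as had 11 of 11 meningeal genes (median -1.51 against -0.043 over all genes). Of the 10 other granule cell genes 9 had positive slopes, with a median of 0.46 and a smallest adjusted p of 0.25. The plexus and meningeal markers moved with this result, as did other lists, and their part in it was not tested. Positive slopes were found for 2 of 46 ribosomal, 2 of 82 respiratory, 1 of 17 interferon and 2 of 14 microglial genes. They were found for 19 of 72 chemosensory receptors. Synaptic genes went the other way, with 17 of 18 presynaptic and 19 of 21 postsynaptic slopes positive. The negative sign was thus not particular to vessel and meningeal genes.

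For Mbp, Fos, Sgk1 and Dbp 0 genes were called (0% in each fit), with 627, 416, 663 and 1140 genes at an unadjusted p under 0.05 in limma. For comparison, 689 genes had such a p with Ttr and 2003 with Prox1. With Fos, 20 of 28 other immediate early genes had positive slopes (median 0.10 against 0.009 over all genes) and 5 had an unadjusted p under 0.05, Ier2, Dusp6, Dusp1, Btg2 and Nr4a1. The positive sign was not particular to that list. It was shared by 14 of 16 myelin genes (median 0.060), 14 of 18 interneuron genes (0.079) and 14 of 18 presynaptic genes (0.081). Ribosomal genes went the other way, with 9 of 46 positive. With Sgk1, 19 of 22 other glucocorticoid-responsive genes had positive slopes (median 0.10 against -0.008), and 4 had an unadjusted p under 0.05. Other lists moved with Sgk1 as well: 0 of 11 meningeal genes had a positive slope (median -0.93, 9 with an unadjusted p under 0.05), 0 of 15 endothelial and mural genes (median -0.29), 0 of 8 subiculum genes (median -0.22) and 11 of 11 dentate granule genes (median 0.16). Their part in the result was not tested. With Dbp, 10 of 19 other clock genes had positive slopes.

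**Figure D4:**
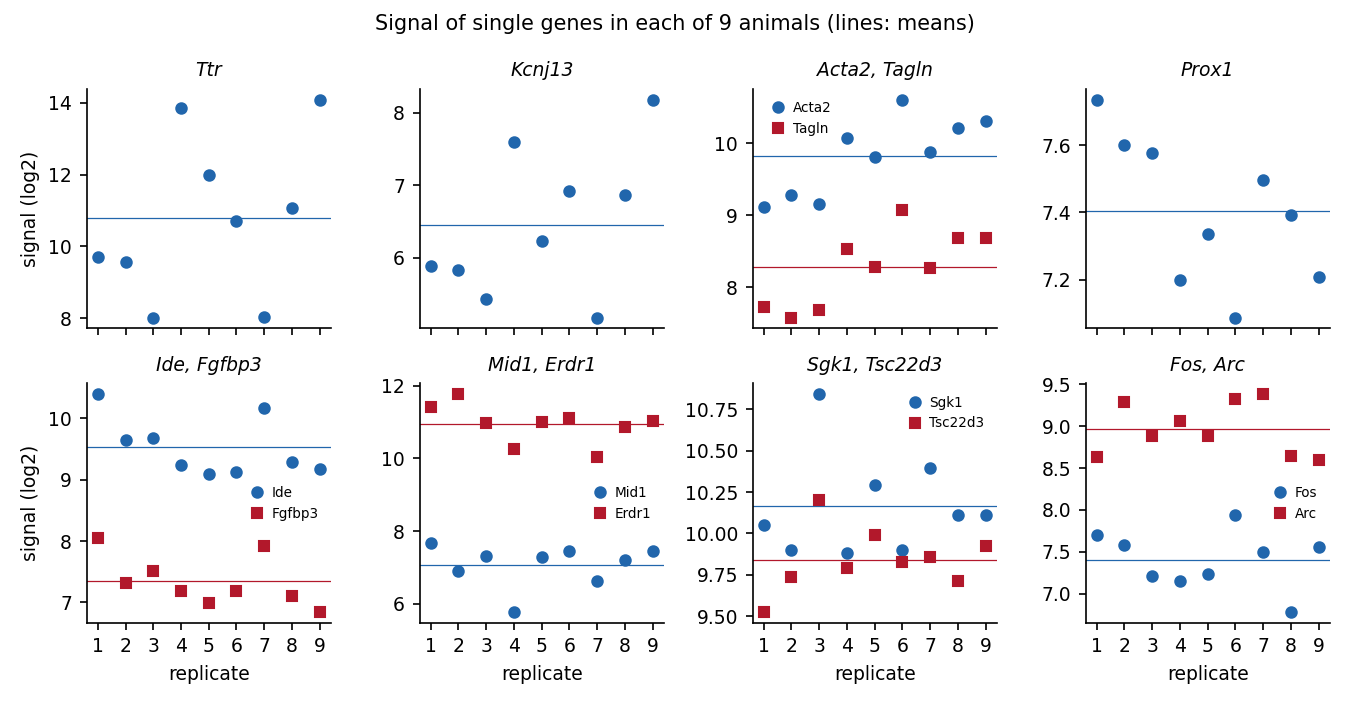
Signal (log2) of single genes in each of the 9 animals, with horizontal lines at the means and a separate scale in each panel. Ttr and Kcnj13 are high in replicates 4 and 9, Ide and Fgfbp3 in replicates 1 and 7, Sgk1 and Tsc22d3 in replicate 3, and Acta2 and Tagln are low in replicates 1 to 3, where Prox1 is highest.

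The start regions of the smooth muscle genes are shown because these genes moved together, and serum response factor is known to bind CArG boxes in promoters of this class. A RefSeq table of GRCm38.p6 held a 300-base region, from 250 bases before to 50 after the start, for 4 of the 7 called genes: Acta2, Cnn1, Col8a1 and Myl9. In the lines below, 5′ to 3′ on the gene's strand, capitals mark a strict CArG box. The first is Myl9 on the plus strand at chr2:156775214-156775513, the next Acta2 on the minus strand at chr19:34255324-34255623.
Myl9: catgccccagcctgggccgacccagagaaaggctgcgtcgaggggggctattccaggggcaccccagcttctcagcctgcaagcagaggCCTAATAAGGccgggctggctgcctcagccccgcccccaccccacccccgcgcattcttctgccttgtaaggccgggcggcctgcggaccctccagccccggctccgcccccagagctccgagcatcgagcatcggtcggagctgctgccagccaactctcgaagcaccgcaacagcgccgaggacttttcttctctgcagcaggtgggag
Acta2: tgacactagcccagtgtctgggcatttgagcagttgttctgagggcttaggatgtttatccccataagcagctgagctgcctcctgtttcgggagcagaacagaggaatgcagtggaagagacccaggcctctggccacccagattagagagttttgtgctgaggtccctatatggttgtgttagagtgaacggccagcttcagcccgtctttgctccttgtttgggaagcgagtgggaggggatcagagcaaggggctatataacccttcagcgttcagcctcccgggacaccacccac
The box in Myl9 starts at position -161, counted from the start. The CArG box was searched on both strands and is the same motif on each. It was in 1 of these 4 regions and in 1.63% of 32851 regions of that length, and the letters TATAAA, searched on both strands, were in 0 of the 4 and in 13.6% of all. A match is a description of the letters. Looser forms of the box were not searched or counted, but the printed lines hold some that differ from the strict form at 1 base. They are ccctatatgg and ccttgtttgg in Acta2 and ccttgtaagg in Myl9. The lack of capitals in Acta2 therefore does not mean that it lacks such a box.

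Correlation between single markers of different cell types or processes was weak against the number of animals. Among 16 marker genes 120 pairs were computed, and 0 passed an exact two-sided permutation test after adjustment over the 120 pairs, for r or for rho; 7 pairs had an unadjusted p under 0.05 for r and 5 for rho. The largest r was that of Hba-a1 with the cold-inducible Cirbp (r = 0.79, rho = 0.70, exact permutation p = 0.0062 and 0.043, adjusted p = 0.73 and 0.79; r = 0.66 without the 2 animals farthest from the median). The largest rho was that of Hba-a1 with the chaperone Hspa5 (rho = -0.82, r = -0.65, exact permutation p = 0.011 and 0.057, adjusted p = 0.79 and 0.73; r = -0.61 without the 2 farthest animals), and Hba-a1 lay under the background level. Ttr and Prox1 had r = -0.69 and rho = -0.67 (exact permutation p = 0.041 and 0.059, adjusted p = 0.73 and 0.79), and r = -0.54 without the 2 farthest animals.

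Variation over all genes was spread over several axes. The first principal component of the genes above background held 32.7% of the variance, the second 17.5% and the third 12.6%. On the first, replicates 1 (11.42) and 2 (10.02) were at 1 end and replicate 9 (-10.99) at the other. Genes with the largest positive loadings were Cacng8, Rab5c, Dlg2, Ide, Kcnq1ot1, Max, Islr2 and Slc9a5, and those with the largest negative ones Ttr, Kcnj13, Fmod, Ogn, Acta2, Tagln, Slc13a4 and Slc6a20a. Of 43 ribosomal genes 2 had a positive loading on it, of 78 respiratory genes 4, and of 20 postsynaptic genes 19, against 7055 of all 12158. The difference between the 3′ and 5′ control probe sets, a measure of RNA integrity, ran from 0.21 to 0.30. It had r = 0.41 and rho = 0.38 with the first component (n = 9, exact permutation p = 0.27 and 0.31, adjusted over 3 components 0.41 and 0.47; r = 0.32 without the 2 farthest arrays). With the third component it had r = -0.79 and rho = -0.62 (exact permutation p = 0.0092 and 0.086, adjusted 0.028 and 0.26), and r = -0.46 without those 2 arrays, so that relation rests on them.

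The 200 genes of largest SD were grouped by their correlation across the animals (average linkage, r of 0.7), which gave 8 groups of at least 5 genes that held 164 of them. The grouping used these values, so the patterns below are descriptions. Of the 116 genes with an SD over 0.3, 48 were in group 1, 15 in group 2, 17 in group 3 and 6 in group 5, and 16 in none.

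Group 1, with 63 genes, held 8 of 10 meningeal genes above background, 3 of 15 endothelial and mural genes and 2 of 9 choroid plexus genes: 41 of 63 were lowest in replicate 3, and 43 were highest in replicate 9 and 13 in replicate 6. Besides the genes above it held Lum, Islr and Slc6a13, the secreted prostaglandin D synthase Ptgds, the macrophage genes Mrc1, Lyz2 and Cd74, the endothelial Vwf, and Bmp4, Bmp6 and Bmp7. Ptgds read 13.09 in replicate 3, 13.08 in replicate 7 and 14.07 in replicate 6. Group 5 had 9 genes, 5 of them on the choroid plexus list and all 9 highest in replicate 9: Ttr, Ecrg4, Folr1, Sostdc1, Perp, Clic6, Mdfic, Prr32 and Steap1. Sostdc1, a secreted antagonist of BMP and Wnt signals, read 7.84 in replicate 9 and 7.60 in replicate 4, against 6.61 to 6.91 elsewhere.

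Group 2, with 30 genes, held both noncoding and protein-coding genes. Among them were Kcnq1ot1, the antisense RNA of an imprinted domain, Miat, Meg3, Snhg11, Ftx, Srrm4os and Mir124a-1hg, a host of a neuronal microRNA, and 8 entries with clone or predicted names. The RNA-binding proteins Sfpq and Taf15 were in it as well. Of the 30, 24 were highest in replicate 1 and 6 in replicate 2, and 17 were lowest in replicate 6. Miat read 10.92 and 10.80 in replicates 1 and 2 and 9.84 in replicate 6. Meg3 read 12.05 and 11.84 in the first 2 and 11.19 in replicate 6. Each is named by the probe set annotation alone.

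Group 3, with 26 genes, was highest in replicate 2 for 21 genes and lowest in replicate 5 or 8 for 13 and 11. It held synaptic genes (Cacng8, Dlg2, Dlg4, Camk2a), the imprinted noncoding RNA Rian, the endosomal GTPase Rab5c, the exoribonuclease Xrn1 and the kinase Map3k10. Rab5c read 9.78 in replicate 2 and 8.25 in replicate 5, and Rian 11.29 and 9.76. Other probe sets of Camk2a differed in this: across its 6 probe sets replicate 2 was highest on 4, while replicate 1 was highest on another and replicate 5 on the last. Group 4, with 14 genes, was highest in replicate 2 for 11 and lowest in replicates 8 and 9 for 7 each; Trim32, a ubiquitin ligase, read 11.68 in replicate 2 and 10.80 and 10.82 in replicates 8 and 9. Group 7, with 7 genes, was highest in replicate 2 for 6, among them Slc8a2, a sodium-calcium exchanger (8.01 against 7.05 to 7.27).

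Group 6, with 8 genes, held Cbln1 and Cbln4, secreted organisers of synapses, with Vwc2l, Klf5, Tshz2, Camk2d, Cobl and Ddit4l. Its mean was high in replicates 6 (0.33), 1 (0.26) and 4 (0.25) and low in replicates 3 (-0.38) and 9 (-0.33). Tshz2, a zinc finger gene listed for the subiculum, read 9.78 in replicate 6, 9.68 in replicate 4 and 8.96 in replicate 9. Group 8, with 7 genes, held Ccn2, Vgll3, Cd44, Trhr, Gpr101 and Col6a1, and 5 of the 7 were lowest in replicate 7. Ccn2, a matrix protein gene, read 7.23 in replicate 7 and 7.39 in replicate 3, against 8.50 in replicate 6.

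**Figure D5:**
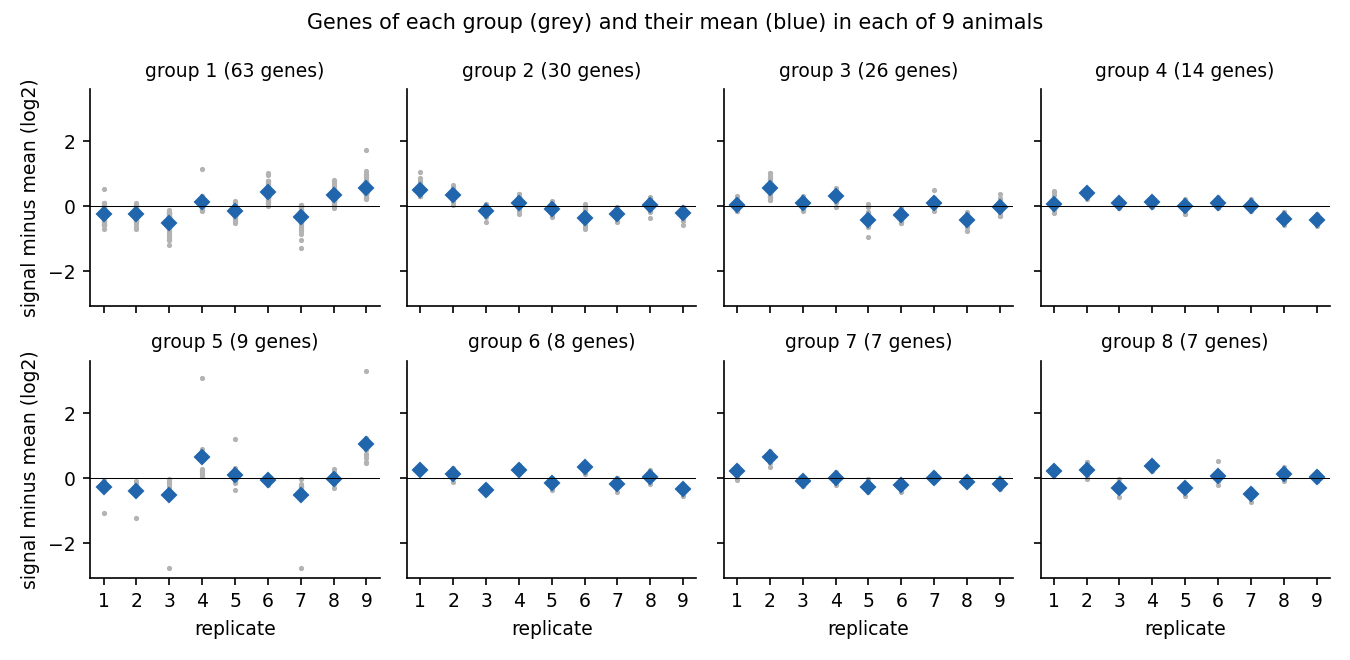
For 8 groups of variable genes, the signal of each gene minus its mean over the animals (grey, log2 units) and the group mean (blue) in each of 9 animals. Group 1 is lowest in replicate 3 and highest in replicate 9, group 2 is highest in replicate 1, groups 3, 4 and 7 in replicate 2, and group 5, with Ttr, in replicate 9.

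A few genes varied on their own, with neighbours on the chromosome. These were chosen after their values were seen and carry no test. Ide, which encodes insulin-degrading enzyme, read 10.39, 9.64, 9.68, 9.24, 9.09, 9.12, 10.17, 9.28 and 9.18 in replicates 1 to 9, so replicates 1 and 7 stood above the rest. Replicates 1 and 7 were the highest pair on 4 of its 5 probe sets, counting the one just quoted, and on the other replicates 7 and 3 were. In the gene order of GRCm38.p6 the growth factor carrier gene Fgfbp3 lies 5 measured genes away, and it read 8.05 and 7.92 in replicates 1 and 7 and 6.85 to 7.52 in the others. The transcript 4931408D14Rik, next to Ide, had the same high pair (5.75 and 5.80, against 5.05 to 5.59), at a mean under the background level (5.38). The genes in between, Btaf1, Cpeb3 and Marchf5, had SDs of 0.15, 0.16 and 0.11, and on the far side Kif11 (mean 5.08, also under that level), Hhex and Exoc6 had 0.14, 0.16 and 0.056, compared with 0.47 for Ide and 0.41 for Fgfbp3. None of those 6 genes had replicates 1 and 7 as its highest pair.

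Mid1, a ubiquitin ligase gene that spans the pseudoautosomal boundary of the mouse X chromosome, and Erdr1, which lies within that region, were both low in replicates 4 and 7. Mid1 read 5.78 and 6.62 there and 6.92 to 7.66 in the other animals. Erdr1 read 10.26 and 10.03 there and 10.87 to 11.76 in the others. G530011O06Rik, which with the dim 4933400A11Rik (mean 3.52) lies between them in the gene order, read 6.23 and 5.72 in those 2 animals against 6.32 to 6.68. Hccs and Amelx, on the other side of Mid1, had SDs of 0.099 and 0.11. The second probe sets of Mid1 and Erdr1 had means of 4.60 and 4.63, under the background level. Eps8l1 was lowest in replicate 1 on both of its probe sets (5.40 and 5.32).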

How the data were processed

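Hippocampal RNA of 9 undisturbed mice, 1 array each, was analysed. The deposited values are log2 probe set signals; RMA and the affy package are named per the submitters' processing notes, with versions not given in the sources used here. Manufacturer's controls were left out, 0 columns of the 9 undisturbed animals went unused, and the 8 sleep-deprived animals entered no result. Probe sets with 1 symbol numbered 34945, with several 932 and with none 9160; 34741 matched RefSeq genes by Entrez identifier. Each gene was read from its brightest probe set. SDs, correlations, components and groups (average linkage) were computed with Python 3.11.15 and scipy 1.17.1, and slopes on 6 genes with limma 3.58.1 in R 4.3.3, Benjamini-Hochberg adjusted over all genes. The fit was tested on simulated data. Arrays carry no read depth, and the number of animals limits the precision.

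Genes were named by rule: the 20 of highest signal, 25 of largest and 10 of smallest SD (clone names skipped), reference genes, the 16 marker genes, called genes, up to 4 brightest and 4 most variable members of a list, 8 per component end and 8 per group. Others were chosen after their values were seen, among them Fgfbp3, the chromosomal neighbours, the other group members and single list members. Members and lists were chosen with earlier results of these data known. Alternatives were quantile normalisation, the mean of all probe sets, a median absolute deviation, other fit options, other group sizes and leaving out animals.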

Additional observations from a re-analysis of the deposited data

Results flagged for a closer look

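In 7 of 217 genes, list means and array measures tested, 1 animal stood apart from the other 8 by more than Dixon's critical share of 0.493 of the whole range. For items not picked by their values chance flags about 1 in 20, and the 7 are a smaller share than that. Many of the 217 were picked by their values, so that rate does not hold for them and the flags are a description. Slc8a2 (share 0.771) and Map3k10 (0.548) were high in replicate 2, at 8.01 and 8.43. Folr1 (0.673) and Clic6 (0.495) were high in replicate 9, at 7.31 and 7.61. Usp18 (0.627), under the background level on average, was high in replicate 3 at 6.07. G530011O06Rik (0.527) was low in replicate 7 at 5.72. Klc4 (0.583) was lowest in replicate 4 at 8.26, within a range of values that ends at 8.32.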

How the results depend on the processing

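Of 158 alternative values for the main results, 137 were counts close to the main count or values that moved by less than a spread, and 21 moved. For most results that spread came from the same runs with 1 animal left out, so those runs could hardly move. Many of the 137 are counts of 0 against 0, as in every fit on Mbp, Fos, Sgk1 and Dbp. The tally is therefore no measure of robustness. Of 539 values for single genes and lists, 457 held, 28 moved and 54 passed the threshold no longer. No called slope changed sign, while 24 list values did, in 7 lists whose median r lay between -0.050 and 0.15; the striatal list had a median r of 0.099, which was -0.29 when probe sets were averaged and -0.13 after quantile normalisation. When probe sets were averaged, the median signal of genes was 6.59 in place of 7.39. The median SD was 0.0845 as a median absolute deviation, 0.0847 with the mean of all probe sets and 0.0878 without replicates 1 and 2, a setting chosen after seeing the data, and 0.0933 to 0.101 with 1 animal left out. With 400 genes there were 15 groups in place of 8. Genes that followed Ttr numbered 3 with the mean of all probe sets, 0 with the trend and robust options, and 0 to 4 with 1 animal left out: 4 without replicate 4 or 5, 2 without replicate 6 and 0 without replicate 7 or 9. Genes that followed Prox1 numbered 4 among genes above background, 0 with the mean of all probe sets, 12 with the trend and robust options, 18 with the 3′ minus 5′ control signal as a covariate, and 0 to 8 with 1 animal left out. Of the 25 genes of largest SD, 16 were shared with the median absolute deviation and 19 without replicate 9. The causes were not tested. No paired analysis was possible because only 1 group is described. The number of arrays limits the precision.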
